A study of Mus musculus with 7 samples.

Results

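mmu-miR-1, mmu-miR-133a and mmu-miR-133b are microRNAs (miRNAs) known for their restriction to striated muscle, and their signals were followed here on kidney arrays. They were chosen by the name that the array gives each probe set, and they make up 3 of the 696 mouse miRNAs on the array. All 3 are carried by 2 probes with 10 spots each. The question was how much signal each of them gave on every kidney array, whether they varied together, and whether they differed between the labelled groups.

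An miRNA is a short RNA that guides silencing proteins to messenger RNAs, mainly through the seed, the stretch near its 5′ end that pairs with the target. miR-1 and miR-133 are cut from shared primary transcripts in skeletal and heart muscle under the control of myogenic factors such as MyoD and serum response factor. miR-1 is known to favour muscle differentiation and miR-133 to favour myoblast proliferation. The kidney is built of epithelial tubules, glomeruli, vessels and interstitial cells, with smooth but no striated muscle, while the body wall beside it holds striated muscle.

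Kidney RNA came from male C57BL/6 mice of 9 to 12 weeks, 28 days after surgery on the left ureter under pentobarbital. Surgery was either ligation of the ureter (unilateral ureteral obstruction, a model of kidney fibrosis) or a sham operation that exposed the ureter and left it open. Agilent mouse miRNA arrays read the Cy3-labelled total RNA in 1 colour. There were 7 arrays, of which 4 carry the label non-treated (replicates 1 to 4) and 3 the label treated (replicates 1, 3 and 4). The labels do not settle which of them stands for the ligated ureter, so every difference is given as labelled treated minus labelled non-treated. Signed differences by label run opposite to the direction that the study gives for obstructed against sham kidneys. For miR-21 the difference was −2.18 on the log2 scale (SE 0.13, adjusted p = 1.3e-05). RNA was taken from collected kidneys with all their cell types, so fewer cells of a type and less RNA per cell cannot be told apart.

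The mature sequence of miR-133b is shown because its seed is that of the miR-133 family. That of miR-206, another striated-muscle miRNA on the array, is shown because it carries the seed shared with miR-1. Capitals mark the seed, bases 2 to 8 from the 5′ end, and both sequences are from RefSeq.
mmu-miR-133b-3p: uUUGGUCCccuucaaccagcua
mmu-miR-206-3p: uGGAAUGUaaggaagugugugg
The first lies at chr1:20682834-20682855 and the second at chr1:20679055-20679076, both on the + strand of GRCm38.p6. The genes Mir206 and Mir133b are neighbours on chromosome 1, with 0 other genes starting between them. Mir1a-1 and Mir133a-2 are neighbours on chromosome 2, again with 0 genes starting between them. miR-133a and miR-133b are near-identical, so a probe for either may also take up the other, and their signals are not independent measurements.

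The 7 arrays differed in overall brightness. Averaged over the 186 miRNAs that every array detected, the log2 signal ran from 6.65 to 7.52 in the non-treated label and from 5.79 to 6.42 in the treated label. Non-treated replicate 3, at 6.65, was well below its 3 fellow arrays, which were at 7.40 or above. Its spike-in controls, synthetic RNAs added in equal amount, averaged 11.49 on the log2 scale against 12.12 to 12.13 on those 3 arrays, and 11.18 to 11.74 on the arrays labelled treated. Because this array stands apart, results are also given without it. Across miRNAs, correlations between arrays were 0.990 to 0.998 within a label and 0.897 to 0.919 between labels.

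miR-1 was the member detected on every array. Before any scaling its summed signal, an intensity in arbitrary units, was 25.3, 42.1, 9.03 and 28.8 on non-treated replicates 1 to 4. On treated replicates 1, 3 and 4 it was 5.97, 7.56 and 5.37. The arrays labelled non-treated were all brighter than those labelled treated, with non-treated replicate 3 closest to them. After each array was scaled by its mean log2 signal, the log2 signal of miR-1 was 4.01, 4.62, 3.27 and 4.19 in the non-treated label. In the treated label it was 3.28, 3.24 and 3.38. On this scale non-treated replicate 3 fell among the arrays labelled treated, so that the groups overlapped. The lowest of the other 3 arrays, at 4.01, was above the highest of these 4, at 3.38.

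miR-133a was detected on the fewest arrays. Its summed signal was 11.7, 18.0, 2.47 and 8.54 on non-treated replicates 1 to 4, and 1.18, 2.05 and 0.975 on treated replicates 1, 3 and 4. Agilent's software called it detected on 3 of 4 arrays labelled non-treated and on 0 of 3 labelled treated (Fisher's exact test, 2-sided, p = 0.143). Of all 696 miRNAs, 232 to 282 were detected per array in the non-treated label and 193 to 214 in the treated label. Fewer detection calls on the arrays labelled treated were thus not particular to the members. The array labelled non-treated on which miR-133a was not detected was replicate 3, which had the fewest detected miRNAs of its label (232). After scaling, the log2 signal was 2.90, 3.40, 1.40 and 2.44 against 0.94, 1.36 and 0.92. The 4 lower values belong to arrays on which no spot of miR-133a was well above background, so their order carries no information.

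miR-133b had summed signals of 21.1, 33.5, 4.19 and 17.2 on non-treated replicates 1 to 4 and of 3.60, 5.19 and 2.42 on treated replicates 1, 3 and 4. It was called detected on 4 of 4 and on 2 of 3 arrays (Fisher's exact test, 2-sided, p = 0.429). The scaled log2 signal was 3.75, 4.29, 2.16 and 3.45 against 2.55, 2.70 and 2.23, in the same order of arrays. Non-treated replicate 3 gave the lowest scaled value of all 7 arrays, so the groups overlapped, while the other 3 non-treated arrays lay above every array labelled treated.

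**Figure D1:**
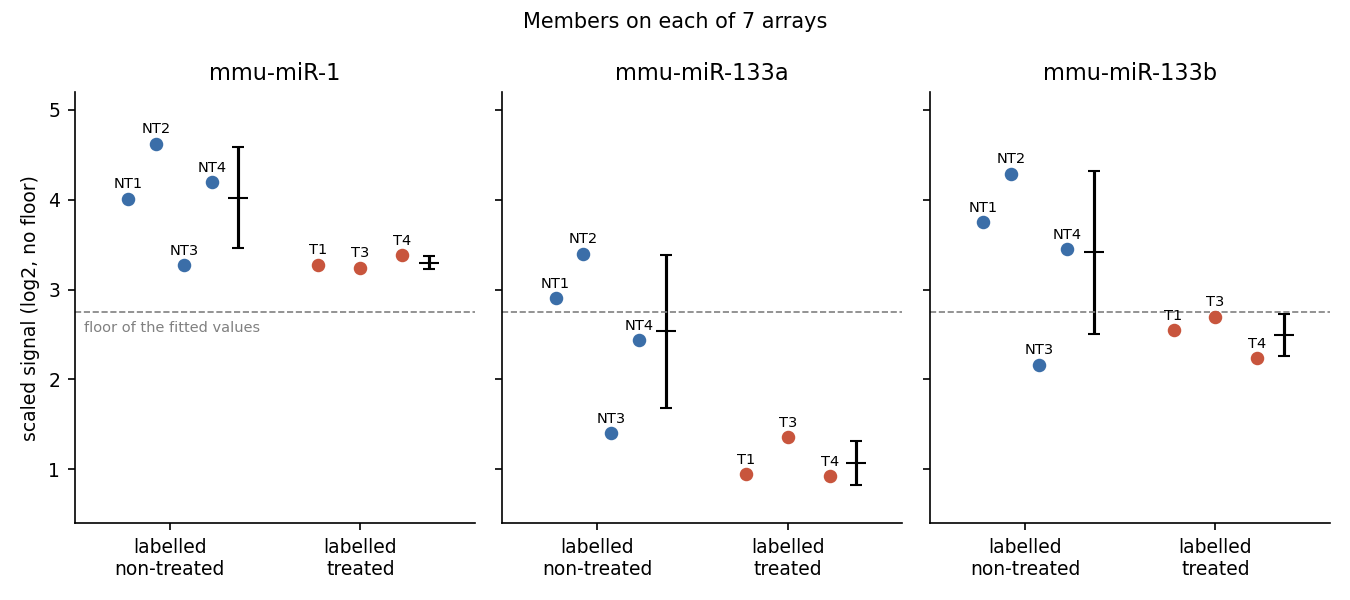
Each point is the scaled signal (log2, no floor) of a member on an array, with arrays labelled non-treated (NT) in blue and those labelled treated (T) in red, numbered by replicate. Black bars are the group mean ± SD (n = 4 and 3), and the dashed line is the floor of 2.75 used in the fit. For miR-1, NT3 at 3.27 lies level with the arrays labelled treated, which range from 3.24 to 3.38.

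The 3 brightest arrays after scaling were the same for all 3 members. Non-treated replicate 2 was the brightest for each of them, and non-treated replicates 1 and 4 came next in either order. Spot calls were also counted. They rest on signals not scaled between arrays, and the arrays labelled treated were dimmer on average. Of the 20 spots of miR-1, 10, 12, 10 and 10 were well above background on the arrays labelled non-treated, against 6, 8 and 5 on those labelled treated. For miR-133a the numbers were 10, 10, 0 and 9 against 0, 0 and 0. For miR-133b they were 10, 13, 1 and 10 against 0, 4 and 1. Nearly all of these spots came from the brighter of the 2 probes. The dimmer probe had 2 of 40 spots well above background on the arrays labelled non-treated for miR-1, 0 of 40 for miR-133a and 3 of 40 for miR-133b, and on the arrays labelled treated it had 0 of 30 for each.

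**Figure D2:**
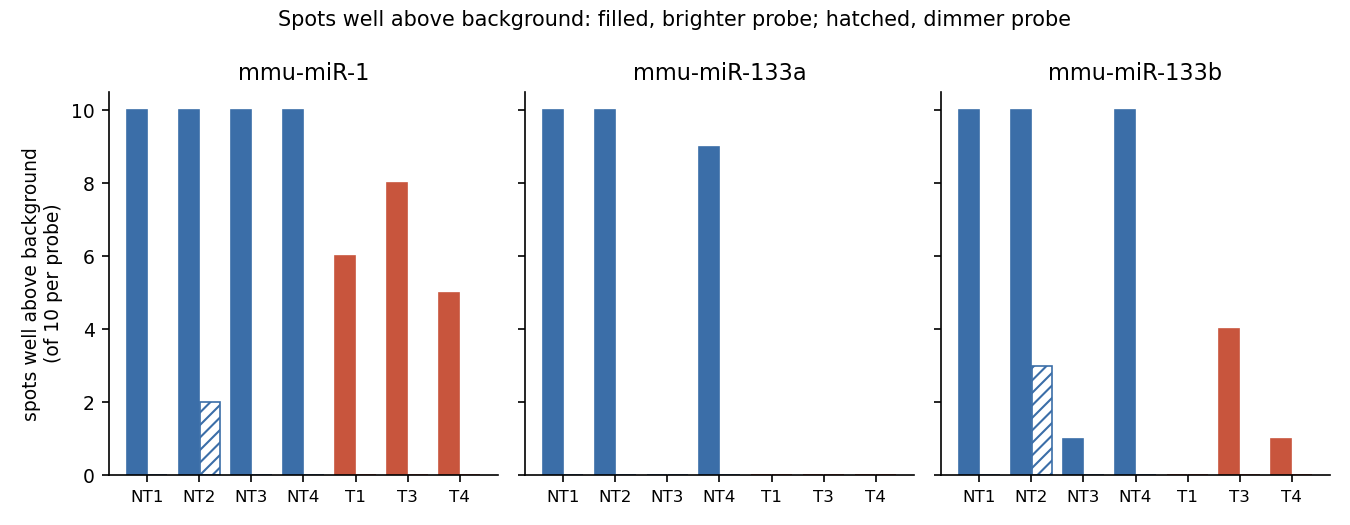
Bars give the number of spots, of 10 per probe, that Agilent's software called well above background on each array (NT, labelled non-treated, blue; T, labelled treated, red). Filled bars are the brighter probe of a member and hatched bars the dimmer one. The brighter probe of miR-133a had 10, 10 and 9 such spots on NT1, NT2 and NT4 and 0 on the other 4 arrays.

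miR-1 and miR-133b passed the filter on detection and were among the 236 miRNAs tested, while miR-133a did not pass. For the fit, signals under a floor of 6.71 (2.75 on the log2 scale) were raised to it, which touched all 3 treated arrays and non-treated replicate 3 for miR-133b and no array for miR-1. miR-1 averaged 4.02 ± 0.56 (SD, n = 4) in the non-treated label and 3.30 ± 0.073 (SD, n = 3) in the treated label. The difference was −0.72 (SE 0.30, 95% confidence interval −1.46 to 0.01, adjusted p = 0.0751 in limma), and the exact permutation test gave p = 0.171. For miR-133b the difference was −0.81 (SE 0.34, 95% confidence interval −1.65 to 0.02, adjusted p = 0.0767 in limma). miR-133b entered the test only through the non-treated label, where it is high and was detected on 4 of 4 arrays. Its treated values are all the floor itself (SD 0), so the size of that difference and its p depend on the filter and the floor.

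At the threshold of adjusted p below 0.01, neither of the 2 tested members was called. Over all miRNAs tested 129 of 236 were called (54.7%), 73 of them lower on the arrays labelled treated (30.9%). The median difference over the 236 was −0.06, and relative to it miR-1 was at −0.66 and miR-133b at −0.75. A call at this threshold was common among miRNAs on these arrays.

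Without the floor miR-133a averaged 2.54 ± 0.85 (SD, n = 4) against 1.07 ± 0.25 (SD, n = 3), a difference of −1.46. The exact permutation test gave p = 0.0571, the smallest that 35 splits allow. Its groups did not overlap, as was true of 66.7% of the 267 miRNAs detected on at least 1 array and with signals above 0 on all. The nearest values were 1.40 on non-treated replicate 3 and 1.36 on treated replicate 3, both with 0 spots well above background. This separation and the permutation p turn on the order of those background-level values, so neither is informative. Tested over those 267 miRNAs, its adjusted p in limma was 0.0236. It entered that set only through arrays labelled non-treated, where it is high, and its treated values are background-level, so this p depends on both. Agilent's calls leave only a bound for the arrays labelled treated, and with the lowest signal that each array could still detect as that bound no fold could be given. miR-133b without the floor differed by −0.92 (exact permutation test, p = 0.229), from 3.41 ± 0.90 (SD, n = 4) to 2.49 ± 0.24 (SD, n = 3).

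The calls turned on non-treated replicate 3. Without that array the difference in miR-1 was −0.97 (SE 0.17, adjusted p = 0.00539) and that in miR-133b −1.08 (SE 0.22, adjusted p = 0.00978), both past the threshold, where 30.7% of the miRNAs tested were called lower. The call of miR-133b again rests on treated values at the floor and on a filter passed through the label where it is high. miR-133a then passed the filter, and with the floor its difference was −0.27 (SE 0.18, adjusted p = 0.254). Without the floor and without that array the differences were −0.97, −1.84 and −1.34 for miR-1, miR-133a and miR-133b. With 3 arrays against 3, each had an exact permutation p of 0.1, the smallest that 20 splits allow. The array left out was the lowest of its label for all 3 members, and the others lay above every array labelled treated. This p was therefore fixed by leaving that array out. The treated values of miR-133a and miR-133b also lay near background.

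The calls turned on the scaling too. With no scaling between arrays the difference was −1.88 for miR-1 (adjusted p = 3.45e-08) and −1.73 for miR-133b (adjusted p = 3.85e-07). In this setting 68.6% of all miRNAs tested were called lower. The SE was 0.32 for both members, as limma gave them the same variance, so these p-values do not measure their own spread. On unscaled signals without a floor the exact permutation test gave p = 0.0571 for miR-1 and 0.114 for miR-133b. Unscaled, the groups did not overlap for miR-1 and miR-133a, as was true of 70.4% of 267 miRNAs. For miR-133a this again rests on background-level signals, 2.47 on non-treated replicate 3 against 2.05 on treated replicate 3. Scaling by the spike-in controls gave −1.37 for miR-1 (adjusted p = 0.00253) and −1.34 for miR-133b (adjusted p = 0.0203), with 64.8% of all called lower. Scaling by the mean of all miRNAs gave −1.23 for miR-1 (adjusted p = 0.00319) and −1.26 for miR-133b (adjusted p = 0.0123), with 51.3% called lower. These scalings also moved the median of all miRNAs, to −1.20 without scaling, −0.70 with the spike-in controls and −0.56 with the mean of all. Relative to that median, miR-1 was at −0.68, −0.67 and −0.67 under these scalings, next to −0.66 as first given. A factor per array shifts the difference of miR-1 and the median nearly alike, so this closeness follows from the scaling and adds no support. miR-133b, with values at the floor, was at −0.53, −0.64 and −0.70 relative to the median, next to −0.75. Other scalings made the differences smaller. With the 75th percentile of all miRNAs they were −0.48 for miR-1 (adjusted p = 0.209) and −0.54 for miR-133b (adjusted p = 0.139). With quantile normalization they were −0.53 (adjusted p = 0.185) and −0.52 (adjusted p = 0.168). Relative to the median, miR-1 was at −0.57 with that percentile and at −0.53 with quantile normalization. The 75th percentile of the miRNAs detected on all arrays gave −0.97 (adjusted p = 0.0161) and −1.04 (adjusted p = 0.0446). With normexp background correction in place of Agilent's, the difference in miR-1 was 0.0043 (adjusted p = 0.52). That setting adds an offset of 50, while the members' summed signals reached at most 42.1.

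**Figure D3:**
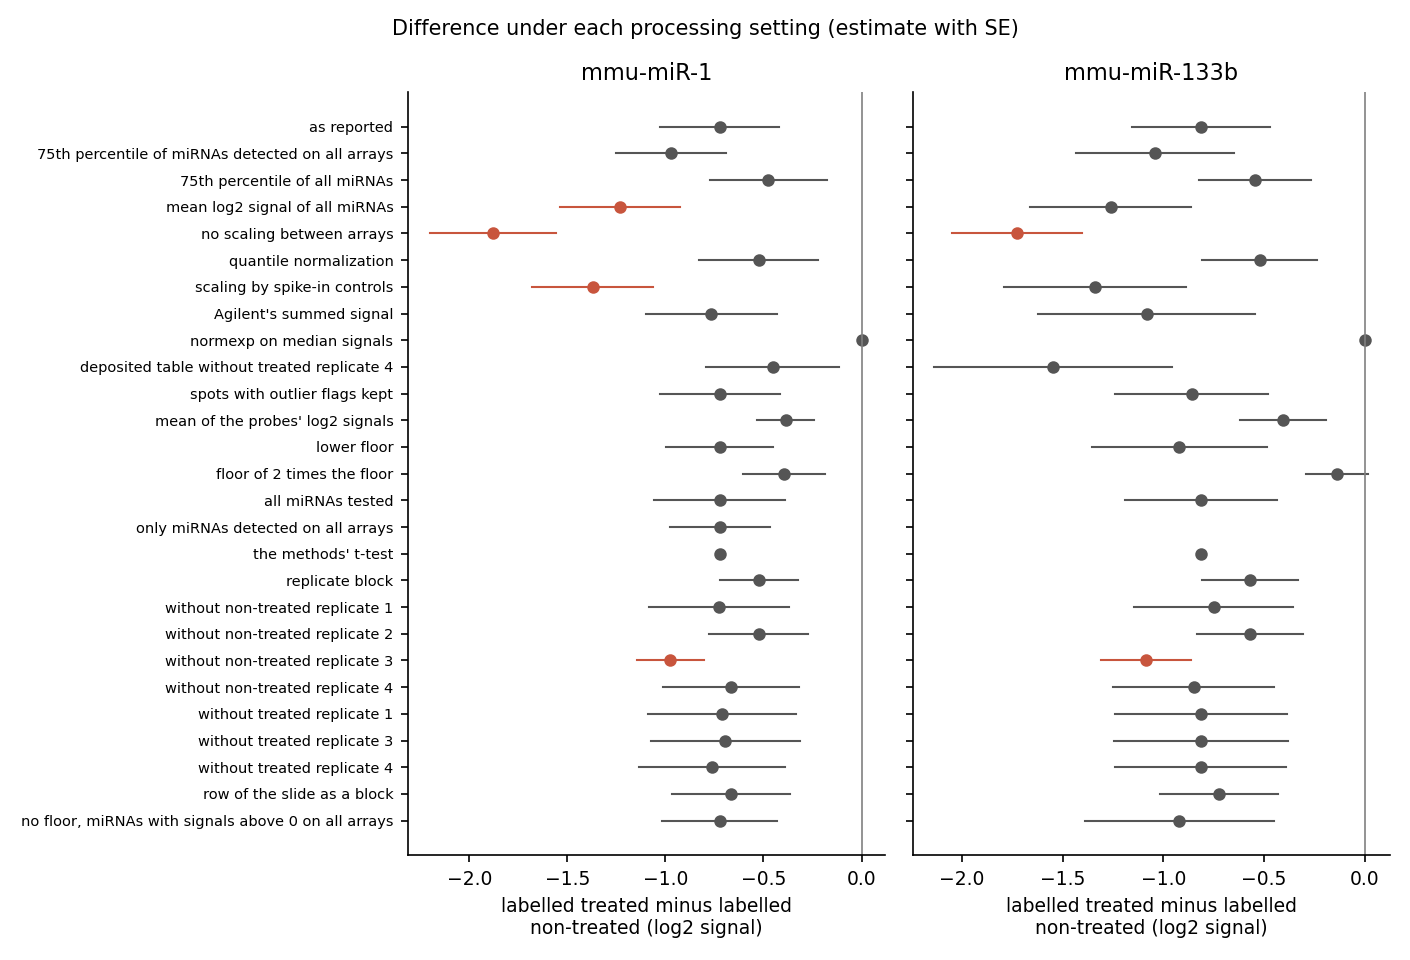
Points are the difference in log2 signal, labelled treated minus labelled non-treated, of miR-1 and miR-133b under each processing setting, with lines for ± 1 SE where the test gives one. Red marks an adjusted p below 0.01. Leaving out non-treated replicate 3 moved miR-1 from −0.72 to −0.97 and miR-133b from −0.81 to −1.08, and both became red.

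The spread of the members within the non-treated label was wide. The SD of miR-1 over those 4 arrays was 0.565, larger than that of 97.0% of the miRNAs tested, and the SD of miR-133b was 0.644, larger than that of 97.5%. The median SD was 0.131. Wider than both were miR-127, miR-205, miR-379, miR-150 and miR-299*. These are SDs of floored values, and miRNAs at the floor on all arrays of the label count among the narrower ones. For miR-133b, non-treated replicate 3 was raised to the floor, and without the floor its SD was 0.90. The miRNAs compared were not matched for brightness. On the 3 arrays labelled treated, the SD of miR-1 was 0.0728, close to the median of 0.0806.

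Non-treated replicate 3 lay lowest within its label for all 3 members. On the scaled signals without a floor it differed from the mean of the other 3 non-treated arrays by −1.01 for miR-1, −1.51 for miR-133a and −1.67 for miR-133b on the log2 scale. The median of 267 miRNAs was 0.02 on the same measure. Of these miRNAs 11 were as low as miR-1 or lower (4.12%), 9 as low as miR-133a (3.37%) and 7 as low as miR-133b (2.62%), the members counted in. Non-treated replicate 2 deviated the other way, above the other 3 by 0.80, 1.15 and 1.17, where 4.49%, 1.87% and 1.5% of miRNAs were as high or higher. Those 3 include non-treated replicate 3, so part of this excess is the low place of that array counted again. Replicate 2 was at 4.62 for miR-1, against 4.01 and 4.19 on replicates 1 and 4. It was at 3.40 against 2.90 and 2.44 for miR-133a, and at 4.29 against 3.75 and 3.45 for miR-133b. Set against the mean of the arrays labelled treated, non-treated replicate 3 was at −0.03 for miR-1. For miR-133a and miR-133b no such difference is given, since on that array 0 and 1 of 20 spots were well above background, and their distances from the other non-treated arrays are to background-level values. The dimness of this array and its low spike-in signal moved with these values, and their part in them was not tested.

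**Figure D4:**
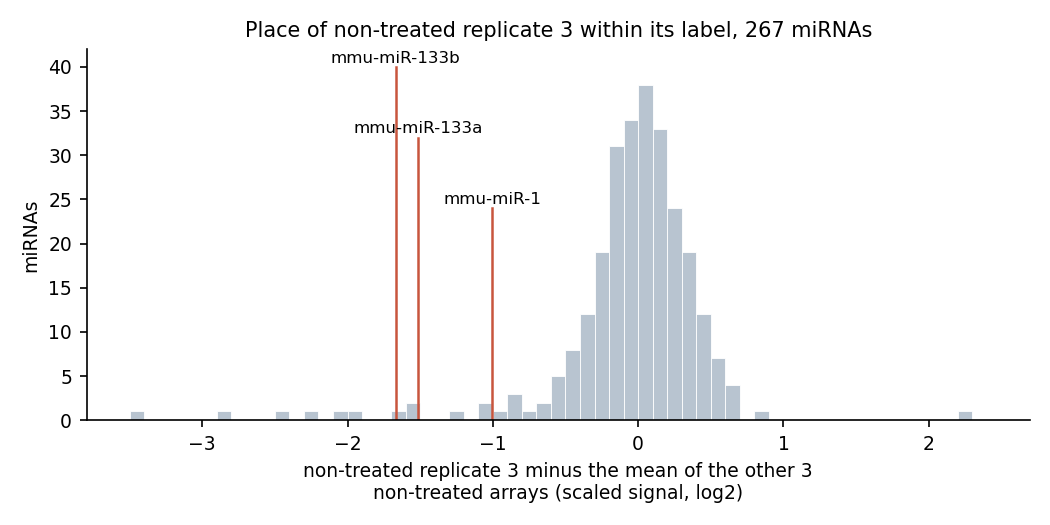
The histogram shows, for 267 miRNAs, the scaled log2 signal on non-treated replicate 3 minus the mean of the other 3 arrays labelled non-treated. Red lines mark the members, and their heights carry no value. Most miRNAs lie around the median of 0.02, and the members lie in the lower tail between −1.67 and −1.01.

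The scaled signals of all 3 members were higher on non-treated replicates 1, 2 and 4 than on the other 4 arrays. On scaled signals without a floor, Pearson's r over 7 arrays was 0.94 between miR-1 and miR-133a (Spearman's rho 0.64), 0.94 between miR-1 and miR-133b (rho 0.71) and 0.96 between miR-133a and miR-133b (rho 0.79). Without the 2 arrays farthest from the median of the first member, r was 0.92, 0.89 and 0.85. Left out were non-treated replicates 2 and 4 for the pairs with miR-1, and replicates 1 and 2 for miR-133a with miR-133b. That left 1 higher array against the 4 lower ones, which alone can give a high r. With the floor, r was 0.78, 0.97 and 0.86. With each label's mean taken off, r was 0.89, 0.91 and 0.98. Yet the members lay on the same side of their label's mean on only 3, 3 and 5 of 7 arrays. On the 4 lower arrays miR-133a had 0 of 20 spots well above background and miR-133b had 0 to 4. The correlations are descriptions with no test, because the arrays form 2 clusters, 3 higher ones (non-treated replicates 1, 2 and 4) and 4 lower ones. The points also share the scaling and the brightness of their array. The rank correlations are lower than Pearson's r because the order within the lower cluster was mixed.

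**Figure D5:**
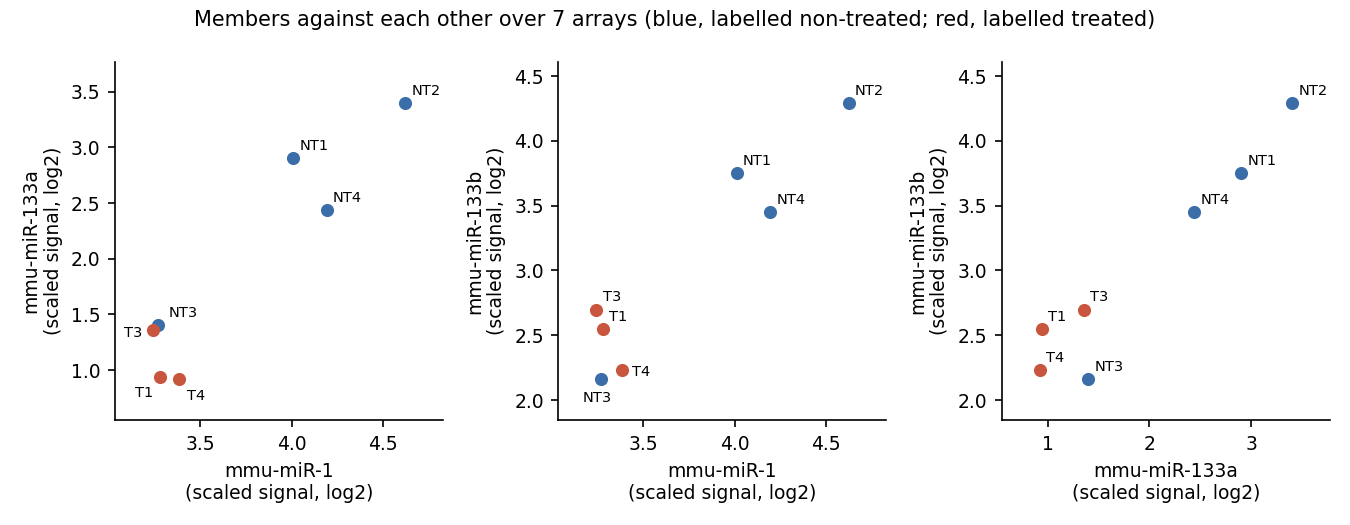
Each point is an array, placed by the scaled log2 signals (no floor) of a pair of members. Blue points are arrays labelled non-treated (NT) and red points arrays labelled treated (T). In each panel NT1, NT2 and NT4 lie apart at the upper right, and NT3 lies with the arrays labelled treated.

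Ratios between members on the same array do not depend on the scaling. The log2 signal of miR-133a minus that of miR-133b was −0.88 ± 0.10 (SD, n = 4) in the non-treated label and −1.42 ± 0.16 (SD, n = 3) in the treated label. The difference was −0.54 (exact permutation test, p = 0.0571, adjusted over 3 pairs 0.0857). On non-treated replicates 1, 2 and 4 this ratio was −0.85, −0.89 and −1.01. The log2 signal of miR-1 minus that of miR-133a was 1.49 ± 0.38 (SD, n = 4) against 2.23 ± 0.30 (SD, n = 3), a difference of 0.74 (exact permutation test, p = 0.0571, adjusted 0.0857). Both ratios rest on miR-133a signals that were not well above background on the arrays labelled treated or on non-treated replicate 3, so their values there are differences from background-level signals. For miR-1 minus miR-133b the values were 0.61 ± 0.39 (SD, n = 4) and 0.81 ± 0.31 (SD, n = 3), a difference of 0.20 (exact permutation test, p = 0.514). This ratio too rests partly on weak signals. On non-treated replicate 3 and treated replicates 1, 3 and 4, miR-133b had 1, 0, 4 and 1 of 20 spots well above background. Without non-treated replicate 3 the 3 differences were −0.50, 0.86 and 0.36.

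Other striated-muscle miRNAs gave no call. Of a list of 6, the array carries miR-206, which is expressed in skeletal muscle, miR-208b and miR-499, which are encoded within myosin heavy chain genes, and miR-133a*, the other strand of the miR-133a precursor. None of these 4 was detected on any of the 7 arrays, and none entered the test. Their scaled signals reached at most 0.620 for miR-206, 1.25 for miR-208b, 0.616 for miR-499 and 2.46 for miR-133a*, each below the floor of 6.71. The signal of miR-206, the neighbour of miR-133b in the genome, was below detection on arrays where miR-133b had 10 or more spots well above background.

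Markers of other cells differed between the labels. Of the smooth-muscle list, 2 of 2 miRNAs tested were lower on the arrays labelled treated: miR-143 by −1.05 (adjusted p = 9.02e-05) and miR-145 by −0.82 (adjusted p = 6.24e-05), both known from vessel walls. miR-145*, also on that list, was detected on no array. All 5 leukocyte miRNAs were lower, among them the myeloid miR-223 by −2.33 and miR-142-3p by −1.95. All 3 red-cell miRNAs tested were higher, among them miR-451 by 1.65 and miR-144 by 2.61. Of the 3 tubule miRNAs tested, miR-192 (3.24) and miR-194 (2.92) were higher and miR-204 was lower (−0.56), and miR-215 was detected on no array. The median differences of these lists were −0.94, −1.95, 1.67 and 2.92, next to −0.06 over all miRNAs tested. No direction turned under another scaling, though 1 of the 3 red-cell miRNAs was called with no scaling, and with normexp background correction miR-145 (0.03) and miR-204 (0.06) came out above 0. The labelled tissue thus carried 3 of its 4 listed tubule miRNAs. The part that cell makeup has in the values of miR-1 and miR-133 was not tested.

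Summed over a list, the scaled smooth-muscle signal was between 335 and 411 in the non-treated label and between 163 and 195 in the treated label. The summed leukocyte signal was between 1354 and 1720 against 322 to 336, the red-cell signal between 1095 and 2359 against 4676 to 5201, and the tubule signal between 244 and 415 against 2211 to 2367. On non-treated replicate 3 the scaled log2 signal of miR-143 was 8.26 and that of miR-145 was 4.81, against 8.34 to 8.56 and 4.81 to 5.01 on the other non-treated arrays. Against the mean of those 3 arrays, non-treated replicate 3 was at −0.17 for miR-143 and −0.10 for miR-145, next to −1.01 for miR-1.

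Among the 185 other miRNAs detected on every array, those whose scaled log2 signal followed miR-1 most closely over the 7 arrays were miR-338-3p (r = 0.94), miR-15b (0.92), miR-140* (0.89), miR-150 (0.87) and miR-140 (0.87). miR-338-3p went from 4.82 to 5.99 in the non-treated label and from 4.44 to 4.74 in the treated label. With each label's mean taken off, the closest were miR-107 (r = 0.98), miR-193b (0.98) and miR-146a (0.95). All of these were picked as the highest r among 185 miRNAs over 7 arrays, with no test. High values are therefore partly given by the choice. miR-193b was at 5.63, 5.99, 4.83 and 5.56 on non-treated replicates 1 to 4, with replicate 3 lowest and replicate 2 highest as for miR-1. miR-107 differed between the labels by 1.55 and miR-146a by −2.02, in opposite directions, so likeness within the labels went with unlike differences between them. miR-133a and miR-133b were above the floor on 2 and 3 arrays, too few for the same listing.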

How the data were processed

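Scanner output of 7 1-colour arrays, deposited by the authors, holds spot intensities from Agilent Feature Extraction 10.7.3.1 (version from the submitters' processing notes), background-subtracted within the array and not scaled between arrays. Detection and background calls are other 0 or 1 values that the authors deposited with them. The authors' table of processed values equals the intensity of each probe's first spot for 6 arrays (1981 of 1981 probes, relative tolerance 1e-05, column medians 0.276 to 0.532), with no log, centring or scaling. For treated replicate 4 its column equals the error estimate (median 1.00), so that array was left out where the table was used. Arrays give no read depth, so precision is limited by how many there are. Nothing in the labels says that arrays of a group are separate mice, though the paper gives mice as n. The p-values therefore measure at most the spread between these arrays, and limma draws each variance toward that of the other miRNAs. In the limma fit without scaling, both members tested were given the same variance. With the scaling and floor as first given, the treated values of miR-133a and miR-133b were all the floor. Their p-values there do not measure the spread within that label.

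Means over spots without outlier flags were taken per probe and summed over the 2 probes of a member, control spots left out (1937 probes, 13920 spots). 0 spots were saturated. Signals were scaled by each array's mean log2 over commonly detected miRNAs, floored at the highest of the arrays' lowest detected signals, and log2-transformed. The labels were compared in R 4.3.3 with limma 3.58.1 over miRNAs that all arrays of a group detected, with Benjamini-Hochberg adjustment over all 236 and a threshold of 0.01. The fit was tested on simulated data. Exact permutation tests were 2-sided, as 2 times the smaller tail share. A test of the correlations between members was planned and is not given, since the arrays form clusters. The members and the lists (other striated muscle, smooth muscle, red cell, leukocyte, kidney tubule) were chosen with earlier results of these data known. Named are the members, the muscle list, 2 examples of each other list, a list's remaining member where it went against the rest or was undetected, miR-21, and the miRNAs most like miR-1. The miRNAs with a wider spread than the members were named after their values were seen. Within a label, the SD of log2 differences between arrays exceeded the value that spot noise gives by a factor of 1.34 or more. This cannot show that the arrays are separate mice. Counting the arrays as separate samples was an assumption. There was 1 slide and 1 scan. Alternatives covered scaling, signal column, background correction (normexp, offset 50), outlier spots, probe summary, floor, detection filter, the methods' t-test, replicate block, slide row and each array left out. Added after seeing the data were the fit without a floor and the same without non-treated replicate 3.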

Additional observations from a re-analysis of the deposited data

Results flagged for a closer look

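The mean log2 signal of non-treated replicate 3, over the miRNAs that all arrays detected, was 6.65 and far below that of its 3 fellow arrays. The gap to its nearest neighbour exceeded the Dixon limit for 4 samples. Its mean log2 spike-in signal of 11.49 stood apart by the same measure. These were 2 of 6 quantities examined, and chance gives such a gap in about 5% of groups. The scaled signals of miR-1, miR-133a and miR-133b on this array did not pass the limit.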

How the results depend on the processing

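The difference in miR-1 was below 0 under 26 of 27 alternatives. These alternatives, and those for miR-133b, are not independent checks. A lower floor, no floor, the t-test and other sets of miRNAs tested all left miR-1 at −0.72. The replicate block and leaving out non-treated replicate 2 gave the same −0.52. miR-1 passed the threshold with the mean of all miRNAs (−1.23), with no scaling (−1.88), with spike-in scaling (−1.37) and without non-treated replicate 3 (−0.97). With normexp on median signals it turned to 0.0043 (adjusted p = 0.52), miR-133b came to 0 and 59 miRNAs passed, against 129. miR-133b was below 0 under 25 of 26 alternatives and passed the threshold with no scaling (−1.73) and without non-treated replicate 3 (−1.08). Leaving out an array in turn gave −0.97 to −0.52 for miR-1 and −1.34 to −0.57 for miR-133b, the first of the latter without the floor, and 116 to 138 miRNAs past the threshold. miR-133a failed the detection filter. Tested with all miRNAs its difference was −0.20 (adjusted p = 0.452), and it was −0.27 without non-treated replicate 3, −1.46 without the floor and −1.84 with both changes. A floor of 2 times that used left miR-133b at −0.14. Over the scalings, the number called lower went from 46 (75th percentile of all miRNAs) to 162 (no scaling), and the number called higher from 7 (no scaling) to 73, against 73 lower and 56 higher as reported. normexp called 34 lower and 25 higher. The methods' test called neither member, and called 131 of 236 miRNAs unadjusted and 118 after adjustment. The replicate numbers gave no sign of pairing, as deviations of same-numbered arrays correlated at −0.06, −0.03 and 0.18. With the replicate block, over 6 arrays, miR-1 was at −0.52 (adjusted p = 0.107) and miR-133b at −0.57 (adjusted p = 0.125), 95 miRNAs passed and 48 were lower. Not every array correlated best with its own number. Signals of miR-133a and of the dimmer probes lay near background, which limits what can be said of them.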
